A study of Rattus norvegicus with 3 samples.

Results

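The 7 genes described here are the natriuretic peptides (Nppa, Nppb, Nppc), their receptors (Npr1, Npr2, Npr3) and Corin, the protease that activates the product of Nppa. They were taken by symbol from the 17450 gene rows of the expression table, and each stood on 1 row that shared neither its locus nor its symbol with another row. The cells were neonatal rat ventricular myocytes, taken from hearts of Sprague Dawley pups aged 1 day, with other cell types depleted over Percoll and by preplating. They were plated with 10% FBS and moved to medium without serum after 24 h. Control cells received ethanol, and treated cells received 100 nM dexamethasone (Dex), a synthetic ligand of the glucocorticoid receptor (GR), over 1 h or 24 h. A group was represented by 1 sample, whose title ends in X2 (duplicate). The table gives 1 FPKM value (fragments per length of transcript and sequencing depth) per gene and group, so no spread between replicates could be computed. A single ethanol control, for which no treatment time is given, served both times, so Dex and time in culture cannot be told apart.

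Atrial natriuretic peptide (ANP, from Nppa) and brain natriuretic peptide (BNP, from Nppb) are hormones made by heart muscle that lower blood volume and pressure, while C-type natriuretic peptide (CNP, from Nppc) acts locally and comes largely from endothelium. Npr1 is the guanylyl cyclase receptor of ANP and BNP, Npr2 is that of CNP, and Npr3 binds all of these peptides and clears them. Corin is a transmembrane serine protease of heart muscle that cleaves pro-ANP at the cell surface. In the ventricle Nppa and Nppb are active before birth and rise again in hypertrophy, which makes them common markers of the fetal gene programme.

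The stretches of promoter that the results below refer to are shown first, from RefSeq on build GRCr8, each running from 250 bases before the annotated gene start to 50 bases after it. Nppa is shown because a GR region was assigned just upstream of its start, Nppb as the neighbouring gene with the other abundant peptide, and Corin because it was the member that rose. All 3 lie on the plus strand, Nppa at chr5:163711934-163712233, Nppb at chr5:163699758-163700057 and Corin at chr14:36035316-36035615. Capitals mark the letters GATAA, which GATA factors can read, and TATAAA, the letters of a TATA box, on either strand. A marked match was not tested as a working element of its gene. Windows were found for 6 members.
Nppa: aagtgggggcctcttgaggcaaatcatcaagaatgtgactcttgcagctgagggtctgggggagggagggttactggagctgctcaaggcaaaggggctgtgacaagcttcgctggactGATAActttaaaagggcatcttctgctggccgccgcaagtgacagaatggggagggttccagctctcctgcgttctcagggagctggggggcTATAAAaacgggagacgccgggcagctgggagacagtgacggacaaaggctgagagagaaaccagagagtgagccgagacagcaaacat
Nppb: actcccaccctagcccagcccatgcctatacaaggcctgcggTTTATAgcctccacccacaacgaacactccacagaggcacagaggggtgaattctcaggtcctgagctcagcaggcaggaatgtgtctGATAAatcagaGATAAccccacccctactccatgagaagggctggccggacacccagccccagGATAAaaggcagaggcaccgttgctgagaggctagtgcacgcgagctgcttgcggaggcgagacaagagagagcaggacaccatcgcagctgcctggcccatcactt
Corin: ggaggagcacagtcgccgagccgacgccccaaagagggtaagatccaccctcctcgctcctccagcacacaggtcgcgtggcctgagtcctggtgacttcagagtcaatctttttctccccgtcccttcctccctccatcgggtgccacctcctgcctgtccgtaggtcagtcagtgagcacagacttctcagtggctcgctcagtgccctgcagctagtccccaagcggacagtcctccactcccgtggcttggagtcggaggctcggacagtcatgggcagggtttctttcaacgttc

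The Nppa window held TGATAA from −132 to −127 and TATAAA from −39 to −34, counted from the start. The Nppb window held TGATAA from −121 to −116 and 2 further GATAA, and TATAAA on the minus strand from −208 to −203. The longer TGATAA, which contains GATAA, stood in 8.89% of 27457 promoter windows of the same length, GATAA in 26.1% and TATAAA in 14.3%, both strands searched. The letters of a GR palindrome (GNACA and TGTNC with 3 bases between them, in 0.422% of windows) and its hexamer (AGAACA, in 20.1%) were in none of the 6 windows of members. These are matches of letters in a window and no record of binding.

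In every group Nppa was the most abundant transcript among rows with a value, ahead of all sarcomere genes that had a row. It had 8985 FPKM in ethanol control, 8959.9 at 1 h and 9749 at 24 h, which was 1.38%, 1.39% and 1.48% of the summed FPKM. The rank leaves aside 5 rows that the table marks as having too many fragments and lists at 0, and the sarcomere gene Ttn had no row. Myl2 was close behind, with 8776 FPKM in control and 8731 at 1 h, and had 2456 at 24 h. Without replicates it is not known whether Nppa and Myl2 differ in control and at 1 h. Nppb had 1369 FPKM in control, 1179.8 at 1 h and 1334 at 24 h and stood at rank 80, 102 and 82. Nppc was barely detected, with 0.859, 0.544 and 0.265 FPKM. In FPKM, the Nppa level was 6.56 times that of Nppb in control, 7.59 times at 1 h and 7.31 times at 24 h.

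The receptors and Corin were expressed at levels lower by orders of magnitude. Npr2 had 11.7 FPKM in control, 11.9 at 1 h and 12.6 at 24 h. Npr3 had 8.45, 7.88 and 8.70 FPKM in the same order. Both exceeded Npr1, the receptor for the abundant peptides, which had 4.89, 4.61 and 4.92 FPKM, so that the ratio of Npr2 to Npr1 lay between 2.40 and 2.57 and that of Npr3 to Npr1 between 1.71 and 1.77. Corin had 4.76 FPKM in control, 4.52 at 1 h and 10.3 at 24 h, and so moved from below Npr1 to between Npr3 and Npr2. Apart from Corin the order of the levels was the same in the 3 groups, and without replicates it is not known whether neighbours such as Npr1 and Corin in control differ beyond the spread between samples.

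**Figure D1:**
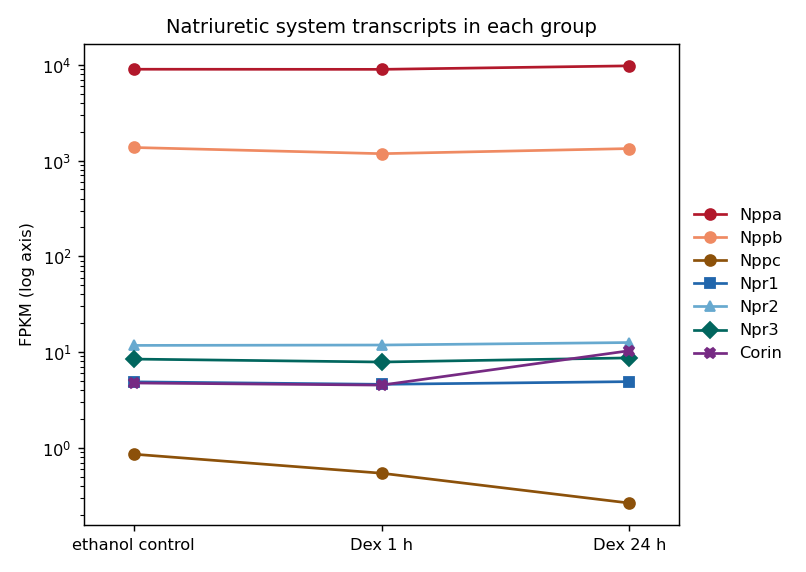
FPKM (log axis) of the 7 genes in ethanol control, Dex 1 h and Dex 24 h, each point being the single value of a group. Nppa runs from 8959.9 to 9749 FPKM, the 3 receptors stay between 4.61 and 12.6 FPKM, and Corin goes from 4.52 at 1 h to 10.3 at 24 h.

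The cultures carried markers of heart muscle. Of 10 genes listed as ventricular myocyte markers 9 had a row and none was at 0. They ranged from 27.2 to 8776 FPKM in control, led by Myl2, the ventricular regulatory light chain. Others on the list, such as Tnnt2 and Actn2, are made in atrial myocytes too, so the list does not separate ventricle from atrium. Atrial markers were present at lower levels. The atrial light chains Myl4 and Myl7 had 414 and 134 FPKM in control and sarcolipin, Sln, had 29.3, while Bmp10 had 0.321. Nppa is itself an atrial gene in the adult heart, and the part of atrial cells in its level was not tested. Markers of other cell types were present as well, some at high levels. Smooth muscle and pericyte markers ranged from 2.32 to 4806 FPKM in control and fibroblast markers from 2.53 to 2079. The highest of the smooth muscle list were Acta2 (4806), Tagln (3491) and Des (446 FPKM), and which cells made these transcripts was not tested. The share of other cell types in the cultures was not tested either. In such a bulk sample, fewer cells of a type and less RNA per cell cannot be told apart.

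The comparison of 1 h with control asked whether these genes respond early to GR activation. None of the 7 members was called by the authors, that is, marked as significant at a q-value of at most 0.05, against 0.863% of 11582 genes tested, and no member's p before adjustment was below 0.05 in the authors' deposited table, the one test available. In the single directions 0.622% of all genes were called higher and 0.242% lower. The log2 fold of Nppa was −0.00 ± 0.32 (SE implied by the authors' test statistic), with a 95% interval from −0.64 to 0.63. That of Nppb was −0.21 ± 0.30, with an interval from −0.81 to 0.38. Nppc had the fold farthest from 0, −0.66 ± 0.70, at levels under 1 FPKM.

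The receptors and Corin lay near their control levels at 1 h. The log2 fold was −0.09 ± 0.35 for Npr1, 0.01 ± 0.32 for Npr2 and −0.10 ± 0.37 for Npr3. For Corin it was −0.07 ± 0.36, with an interval from −0.78 to 0.63. Of 10 classical GR targets, 8 rose at 1 h and 9 at 24 h, against 0.622% and 4.18% of all genes tested. The list was chosen with earlier results of these data known, so these counts are no independent check of the labels. Fkbp5, the GR co-chaperone, rose from 8.97 to 16.8 and then 57.7 FPKM.

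After 24 h of exposure, 1 member differed from control. Corin rose from 4.76 to 10.3 FPKM, 2.17-fold, a log2 fold of 1.12 ± 0.35 with a 95% interval from 0.44 to 1.80. In the authors' deposited table its p was 0.0001 and its q 0.00437. Corin was the 1 called member of 7, against 6.22% of 11673 genes tested, 4.18% higher and 2.04% lower. Against 1 h it rose as well, 2.29-fold (1.19 ± 0.35), with a q of 0.00238 in the authors' deposited table, again 1 of 7 members against 4.92% of 11641 genes tested, 3.31% higher and 1.61% lower. These comparisons share the 24 h sample, so the later rise is not a separate observation. Of 486 genes called higher at 24 h with a fold, 293 had a fold at least as large, and their median was 1.28.

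The peptides and receptors were not called at 24 h. Nppa had a log2 fold of 0.12 ± 0.32, with an interval from −0.52 to 0.75. The fold of Nppb was −0.04 ± 0.30, with an interval from −0.63 to 0.56. Among 151 genes tested with a control FPKM within 2-fold of that of Nppb, 5 were called, and the smallest absolute log2 fold called was 0.90, so a change of Nppb smaller than that might not have been called. Npr1 (0.01 ± 0.35), Npr2 (0.10 ± 0.32) and Npr3 (0.04 ± 0.37) lay close to 0 with intervals reaching at most 0.76 upward and −0.68 downward. The smallest absolute log2 fold called near the level of each receptor was between 0.70 and 0.71.

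Nppc showed the lowest fold of the members at 24 h, from 0.859 to 0.265 FPKM, and was not called. Its log2 fold was −1.69 ± 0.80, its interval ran from −3.27 to −0.12, and in the authors' deposited table p was 0.0101 and q 0.173. With 1 added to both FPKM values the fold was −0.55, so its size depends on how values under 1 FPKM are treated. The median log2 fold of the 7 members was −0.09 at 1 h and 0.04 at 24 h, beside −0.00 at both times over all genes tested.

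**Figure D2:**
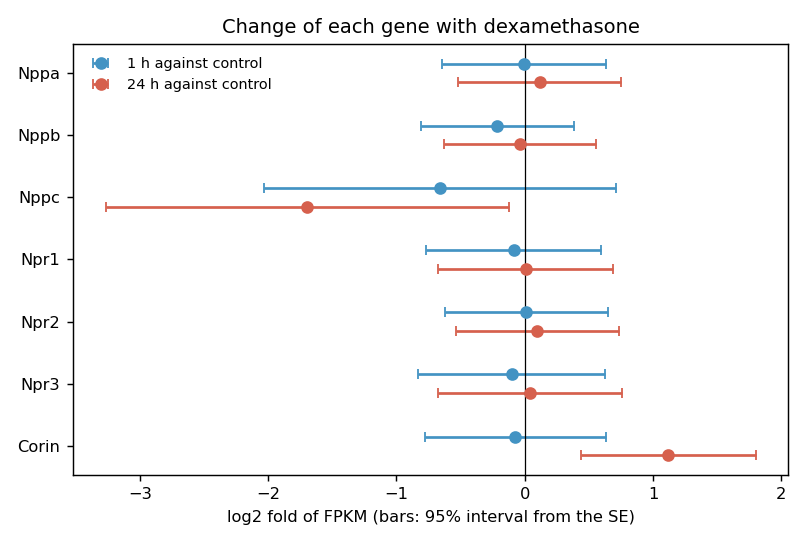
Log2 fold of FPKM over ethanol control for each gene at 1 h (blue) and 24 h (red), with bars for the 95% interval from the SE implied by the authors' test statistic. At 24 h the interval of Corin lies wholly above 0, from 0.44 to 1.80, and that of Nppc wholly below 0, though Nppc was not called; the other intervals include 0.

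Regions bound by GR were taken from a ChIP experiment of another series that the authors joined to the expression table, in which Dex was set against DMSO. Its sheet, on build rn5 as named for the series, held 8514 regions, and 7 of them were assigned to members, 4 to Corin and 1 each to Nppa, Nppb and Npr2. None was assigned to Nppc, Npr1 or Npr3. The height of a region is the authors' highest average tag value, with a median of 20.9 over all regions, and the median log2 ratio of Dex over control was 2.42. Heights and ratios are single values without replicates.

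Nppa and Nppb are neighbours on rn5 chromosome 5, at 168466308 to 168467618 (XLOC_012890) and 168454330 to 168455633 (XLOC_012889), with 10675 bases between them. The Nppa region (168465873 to 168466124) was centred upstream of the start, at −311 bases, and ended 184 bases before it, so 67 of its bases fell within the 250 bases before the start on rn5; the promoter printed above is from another build and its overlap was not tested. Its height was 22.6, rank 3343 of 8514, with a log2 ratio of 3.41. The authors assigned it to the chloride transporter gene Clcn6 too. The Nppb region (168446925 to 168447297) lay farther upstream, at −7220 bases, with a height of 45.3, rank 486, and a log2 ratio of 3.63. Both peptide genes thus had a region with a Dex over control ratio above the median while neither transcript was called at 1 h or 24 h. Of 1300 genes tested at 24 h with a region up to 1 kb upstream at any ratio, a class that holds Nppa and not Nppb, 67 were called (5.15%), beside 6.22% of all genes tested. Of these 59 were higher (4.54%) and 8 lower (0.615%), beside 4.18% and 2.04% of all genes. At 1 h the share lay the other way, with 20 of 1301 genes of this class called (1.54%), beside 0.863% of all genes tested. Of these 15 were higher (1.15%) and 5 lower (0.384%), beside 0.622% and 0.242% of all genes.

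Corin (XLOC_005562) spans 38058861 to 38284564 on rn5 chromosome 14, and all 4 of its regions lie within that span. The highest, at 38174160 to 38174931, had a height of 70.3, rank 117 of 8514, with a log2 ratio of 4.81, and was assigned to LOC680377 as well. A region at 38135649 to 38136005 had a height of 33.3 (rank 1050) and a log2 ratio of 4.89. The regions at 38073377 to 38073809 and 38202896 to 38203162 were lower, with heights of 20.8 and 16.8. The first had a log2 ratio of 1.70, and the other has none because its control value is listed at 0. The distances the authors give, 14731, 32274, 10883 and 39367 bases in order of position, were counted from 3 different starts, and those of 14731 and 32274 are described as downstream, so none places a region relative to a single Corin promoter.

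Among genes tested at 24 h with at least 4 assigned regions, 45 of 341 were called higher (13.2%), beside 5.06% of the 5318 with at least 1 region and 3.45% of the 6355 without a region. The bound of 4 equals the number of regions of Corin, which is itself among the 45, and the 5318 include the 341. These shares are therefore a description and no test of the rise of Corin. Long genes can hold more regions, and the part of gene length in these shares was not tested. At 1 h, when Corin was near its control level, 12 of the 341 genes with at least 4 regions were called higher (3.52%), beside 0.622% of all genes tested and 0.334% of those without a region. The Npr2 region (63677106 to 63677391, chromosome 5) lay 23553 bases from the start of Npr2 (XLOC_012550, 63653694 to 63672103), beyond its end, with a height of 25.4 and a log2 ratio of 3.08. It was also assigned to Fam221b, Hint2 and Spag8. The members without a region were Npr1 (XLOC_009123, chromosome 2, 209271275 to 209286963), Npr3 (XLOC_008354, chromosome 2, 82741076 to 82801473) and Nppc (XLOC_016818, chromosome 9, 93458752 to 93462953).

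**Figure D3:**
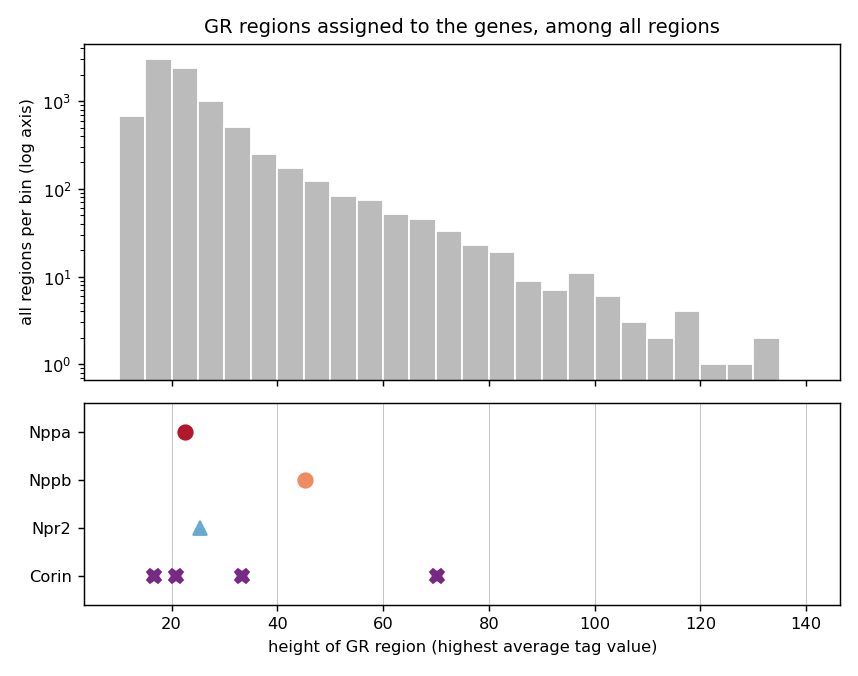
Number of GR regions by height in bins of 5 tag units (top, log axis) and the heights of the 7 regions assigned to Nppa, Nppb, Npr2 and Corin (bottom). The tallest Corin region, at 70.3, and the Nppb region, at 45.3, lie in the upper tail, whereas the Nppa region, at 22.6, lies near the middle of all regions.

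Several enzymes that process or degrade peptides rose at 24 h, as Corin did. Of 9 genes on a list of processing, clearance and other ligands, 6 were tested, 3 rose, none fell and 3 were not called, beside 4.18% called higher over all genes. The median log2 fold of the 6 was 0.53. This list, like those that follow, was chosen with earlier results of these data known, so its counts are no independent contrast with all genes. Mme encodes neprilysin, the membrane peptidase that degrades natriuretic peptides. It had 2.77 FPKM in control, 3.75 at 1 h and 6.64 at 24 h, a log2 fold of 1.26 ± 0.36 at 24 h. Dpp4, a serine exopeptidase at the cell surface, went from 0.311 to 0.445 and 1.39 FPKM (2.16 ± 0.49), at low levels.

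Pam, the amidating enzyme abundant in atrial secretory granules, had 265, 280.2 and 504 FPKM, a log2 fold of 0.93 ± 0.31 at 24 h. For these 3 genes the q at 24 h was 0.00238 in the authors' deposited table, the smallest it holds. The other tested members of the list, named here to complete it, were not called. Furin, a proprotein convertase that processes pro-BNP, had 75.4 FPKM in control and 82.4 at 24 h. Pcsk6, the convertase that activates Corin, had 26.8 and 21.2, and Ide, insulin-degrading enzyme, 26.2 and 24.2. Ostn, the Npr3 ligand osteocrin, was listed at 0 in each group. At 1 h none of the 6 was called, and in the authors' deposited table none of their p-values before adjustment was below 0.05. Pam and Ide had 1 GR region each, Dpp4 had 4, and Mme, Furin and Pcsk6 had none.

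Downstream of the receptors, cGMP made by Npr1 and Npr2 acts through protein kinase G and is broken down by phosphodiesterases. Of 22 genes on this list 18 were tested, and at 24 h 2 fell, none rose and 16 were not called, beside 2.04% called lower over all genes. Rgs4, a GTPase-activating protein for G proteins, fell from 19.5 to 8.39 FPKM (log2 −1.22 ± 0.34). Pde1a, a calmodulin-dependent phosphodiesterase, fell from 6.70 to 3.29 (−1.03 ± 0.40). At 1 h none was called, against 0.863% of all genes, and for 1 gene the authors' deposited table gave a p before adjustment below 0.05. That gene was Rgs2, a regulator of G protein signalling, singled out after its values were seen, with 25.5 FPKM in control, 54.8 at 1 h and 16.1 at 24 h (log2 1.10 ± 0.48 at 1 h); its row shares its locus with another and is uncertain. The median log2 fold of the list was 0.04 at 1 h and 0.06 at 24 h.

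Among cardiac transcription factors known to act on Nppa and Nppb, 1 of 22 tested was called at each time, beside 0.863% of all genes at 1 h and 6.22% at 24 h, so the count at 24 h is near that of all genes. Egr1, an immediate early factor, fell at 1 h from 42.2 to 25.7 FPKM (log2 −0.71 ± 0.32), with a q of 0.0491 in the authors' deposited table that was no longer called when adjusted within the 1 h comparison alone. At 24 h Myocd, the coactivator of serum response factor, rose from 9.59 to 16.2 FPKM (0.76 ± 0.32), with a q of 0.0164 in the authors' deposited table. At each time the other 21 were not called, and the median was −0.07 at 1 h and 0.05 at 24 h. The neighbours of Nppa and Nppb on the chromosome had rows for 6 of 8 genes and none was called at either time. In control and at 24 h, Clcn6 had 17.2 and 17.9 FPKM, the collagen-modifying Plod1 53.9 and 51.9, the mitofusin Mfn2 41.9 and 38.7, Agtrap 7.92 and 9.33, and Fbxo6 59.4 and 61.3. Miip stands on 2 rows, at 6.64 and 7.01 FPKM at 24 h, and is uncertain. For these 7 rows no p in the authors' deposited table was under 0.05.

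**Figure D4:**
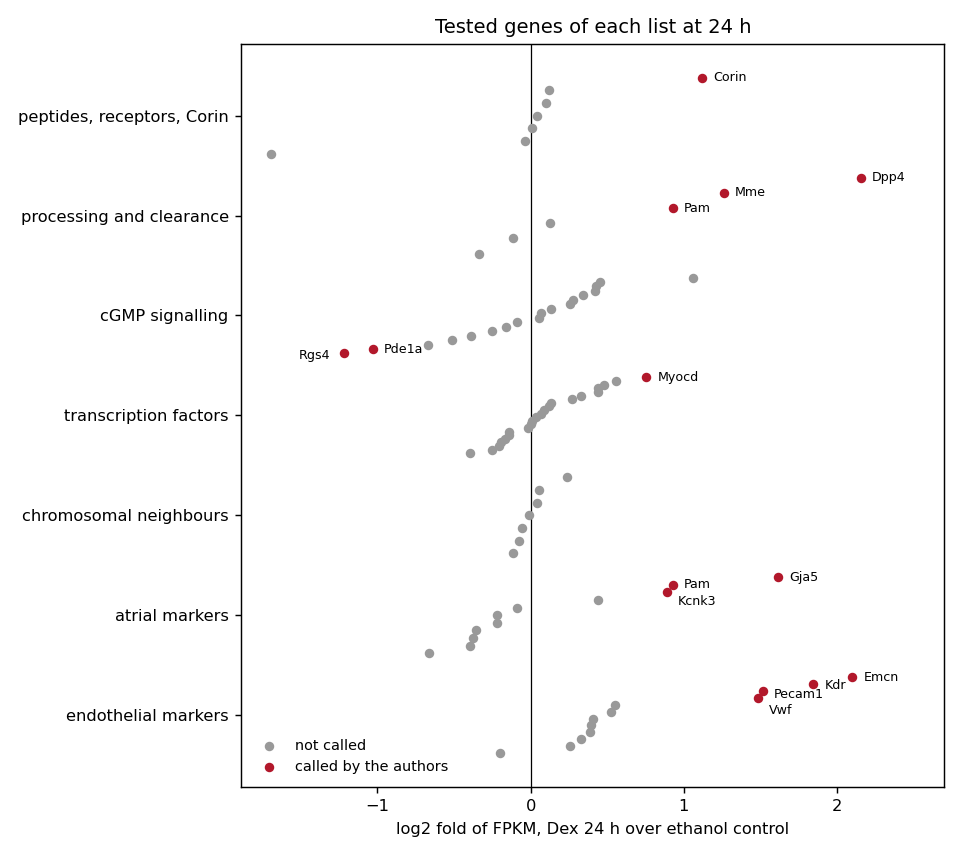
Log2 fold of FPKM at 24 h over ethanol control for each tested gene of 7 lists, with genes called by the authors in red and named. Corin, Mme, Dpp4 and Pam lie to the right of the peptides and receptors, and Rgs4 and Pde1a are the called genes below 0.

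Some markers of non-myocytes rose too, and the counts that follow stand beside 4.18% of all genes called higher and 2.04% called lower at 24 h, with a median log2 fold of −0.00. Of 12 endothelial and endocardial markers 4 rose at 24 h and 8 were not called (median log2 fold 0.47), and their summed FPKM was 201 in control, 193 at 1 h and 283 at 24 h. Eng, not called, weighs heavily in these sums, at 107, 103 and 135 FPKM. The called genes were Emcn, Kdr, Pecam1 and Vwf, and Pecam1, an adhesion molecule of endothelium, went from 9.33 to 26.7 FPKM at 24 h (log2 1.52 ± 0.34). Of 10 macrophage and leukocyte markers 5 rose and 5 were not called (median 0.80), with sums of 129, 137 and 242 FPKM. Lyz2, not called, weighs heavily in these sums, at 78.2, 79.7 and 126 FPKM. The complement gene C1qb, 1 of the 5 that rose, went from 3.44 to 24.3 FPKM (2.82 ± 0.42), and C1qa, C1qc, Mrc1 and Cd163 rose as well. The general leukocyte marker Ptprc went the other way, from 1.94 to 1.21 FPKM (−0.68 ± 0.42), and was not called. Against 1 h Ptprc fell (−1.03 ± 0.41), with a q of 0.0151 in the authors' deposited table. The other uncalled members had log2 folds of −0.46 ± 0.35 for Cd68, −0.04 ± 0.41 for Itgam, 0.03 ± 0.35 for Csf1r and 0.69 ± 0.32 for Lyz2. Of 11 rows of fibroblast markers 2 rose and 9 were not called (median 0.11), with sums of 6429, 6261 and 5330.2 FPKM. Col1a2 stands on 2 of these rows, at 1876 and 1866 FPKM in control. It is therefore counted 2 times in the sums, the median and the rows not called. Of 11 tested atrial markers 3 rose and 8 were not called (median −0.22), with sums of 937, 966 and 1090.5 FPKM. Those that rose were Pam, the potassium channel Kcnk3 and the gap junction gene Gja5 (22.8 to 69.9 FPKM, also made in endothelium). Pam, at 265 FPKM in control and 504 at 24 h, weighs heavily in the sums. The atrial light chains Myl4 (414 to 320 FPKM) and Myl7 (134 to 104) went the other way and were not called. Smooth muscle and pericyte markers gave 2 higher, 1 lower and 7 not called (median 0.12), with sums of 9291, 8157.6 and 10783.7 FPKM. Those higher were Des (446 to 1191 FPKM) and Abcc9 (7.90 to 15.2), and the lower was Rgs5 (22.7 to 8.40). Which cells made these transcripts was not tested. Acta2 (4806 to 5440 FPKM) and Tagln (3491 to 3621) were not called and weigh heavily in the sums. Epicardial markers gave 1 higher and 4 not called (median 0.01). Of 9 ventricular markers Myl2 fell to 2456 FPKM, none rose and 8 were not called (median −0.10). At 1 h no marker on these lists was called. No marker on these lists was at 0 in any group, and the part of these cell types in the rise of Corin, Mme, Dpp4 and Pam was not tested.

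Genes whose pair of folds was nearest to that of a member, by Euclidean distance over the 2 Dex times among 10671 genes tested in both with at least 1 FPKM in a group, describe how common each pattern is. For Corin these were Plscr2 (distance 0.02 on the log2 scale), Susd2 (0.05) and Cdh20 (0.05), all called higher at 24 h, and 10 genes lay within 0.1. Around Nppa lay 962 genes within that distance, the nearest being Fitm2, Phf3 and Slc24a3. Around Nppb lay 443, the nearest being Ahdc1, Zfp579 and Grcc10. The nearest to Npr1 were Abhd16a, Slc12a9 and Scarf2 of 1208 genes, to Npr2 Mrps17, Tjap1 and Armcx1 of 1094, and to Npr3 Rabgef1, Renbp and Mettl3 of 971. Nppc, under 1 FPKM in each group, did not enter. With 2 folds per gene, likeness of this kind is a description.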

How the data were processed

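RNA sequencing was described in 3 groups, ethanol control, Dex 1 h and Dex 24 h. The submitters' processing notes name TopHat, Cufflinks, Cuffdiff and rn5, but no version. Per the file headers, the authors deposited 1 FPKM value per gene and group, with a test statistic (used here as a score), a p-value and a q-value for each pair of groups. How libraries were scaled is not stated, so depth is unknown. The deposited q-value matched a Benjamini-Hochberg adjustment over all 34896 tests within 5.2e-07. FPKM summed to 652814 (control), 643628 (1 h) and 658159 (24 h). GR regions were deposited by the authors with a signal (highest average tag value) and a log2 ratio of Dex over control. For them no source names a caller or a normalization, and 6 columns of single ChIP samples were left unused.

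Here log2 folds were plain ratios of FPKM, SE was the absolute fold divided by the test statistic, and intervals were 95% normal intervals. No test between groups was run, and calls are the authors' significance mark. Whether the duplicates in the sample titles entered the authors' test separately, or came from separate cultures, is not stated. Members and the 15 gene lists (184 entries, 177 with a row) were chosen with earlier results of these data known. Named genes were all members, called list genes with at least 1 FPKM, all neighbours and the 3 nearest patterns; not all are printed. Other list genes named without a call, such as Furin, Rgs2, Ostn, Ptprc and the atrial markers Myl4, Myl7, Sln and Bmp10, were chosen after their values were seen. Computations used Python 3.11.15, pandas 2.3.3 and scipy 1.17.1 and were tested on simulated data. Alternatives were other call thresholds, added constants of 0.1 and 1, rescaling, SE from p, and stricter sets of regions.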

Additional observations from a re-analysis of the deposited data

How the results depend on the processing

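The rise of Corin kept its direction under each alternative run. At 24 h over control its log2 fold lay between 0.98 with 1 added to both FPKM values and 1.12 after centring, and over 1 h between 1.04 and 1.20. It remained the 1 called member, none being lower, at a q-value of at most 0.01, with at least a 1.5-fold change, with adjustment within the comparison and with at least 1 FPKM. Of the 7 GR regions at members, 2 lay within 10 kb of a start, those of Nppa and Nppb, since the other regions are assigned over longer distances. An SE taken from the deposited p instead of the test statistic was smaller, 0.29 for Corin at 24 h. The list calls that changed by over 1.5 times were Egr1 at 1 h (none at a q-value of at most 0.01 or adjusted within the comparison), Myocd at 24 h (none at 0.01), fibroblast markers (1 higher at 0.01) and atrial markers (1 lower when adjusted within the comparison). Levels under 1 FPKM, as of Nppc, limit what its fold can show. No paired analysis was possible because each group is 1 sample, and for the same reason no replicate could be left out.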

Other observations

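Other vasoactive genes differed at 24 h beside the natriuretic system. Of 18 genes on a list of secretory granule and vasoactive peptide genes 14 were tested, and 4 rose, none fell and 10 were not called, beside 4.18% called higher over all genes. Ace, the angiotensin-converting enzyme, had 1.35 FPKM in control, 2.31 at 1 h and 41.6 at 24 h (log2 4.95 ± 0.38 at 24 h). Adm, the vasodilator peptide adrenomedullin, had 27.3, 36.9 and 60.1 FPKM (1.14 ± 0.33), and Agtr1a, an angiotensin II receptor, had 2.03, 2.54 and 4.39 (1.12 ± 0.42). Pam is the remaining call of this list.

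Of 15 fetal and hypertrophic cardiac genes, Nppa and Nppb included, Hspb7, a small heat shock protein of heart muscle, rose from 405 to 770.3 FPKM at 24 h (0.93 ± 0.30). The remaining 14 were not called, beside 4.18% of all genes called higher and 2.04% lower, so the count is near that of all genes. At 1 h none was called, beside 0.863% of all genes, and the authors' deposited table held no p before adjustment below 0.05 for the list.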
